A study of Mus musculus with 9 samples.

Results

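The genes described here are the 4 Id genes (Id1, Id2, Id3, Id4), the inhibitory Smad genes Smad6 and Smad7, and 4 genes that act around the receptor for bone morphogenetic proteins (BMPs): the ligand gene Bmp4, the receptor gene Bmpr1a, the decoy receptor gene Bambi and the antagonist gene Grem1. They were taken by name from the array's annotation, where each of the 10 had 1 probe set, out of 19938 genes with a probe set of their own. All 10 passed the filter on low levels, a mean of at least 3.86 (log2) over the 9 arrays, as did 11963 genes in all.

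NIH-3T3 cells, a mouse fibroblast line grown in medium with serum, were transfected with 25 nM of a synthetic miR-378-3p mimic, of an inhibitor of that microRNA, or of a RISC-free siRNA as control, and RNA was taken 48 hours later. The study's stated aim was to find genes targeted by this microRNA. Each of the 3 groups had 3 arrays, numbered 1 to 3. All groups received RNA with the same lipid reagent, and no array came from untransfected cells. A RISC-free siRNA served as sole control, so that responses to any mimic or inhibitor cannot be told apart from effects of miR-378-3p.

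BMPs are secreted ligands that bind a receptor made of type I and type II kinases. The active receptor phosphorylates Smad1, Smad5 and Smad9, which join Smad4, enter the nucleus and switch on a short list of direct targets, with the Id genes as the best known. Id proteins have a helix-loop-helix but no basic region. They bind E proteins (Tcf3, Tcf4, Tcf12) and keep them and their tissue-specific partners off DNA, and in fibroblasts they are also induced by serum. Smad6 and Smad7 are targets that close the loop: both block the receptor, Smad6 mainly in the BMP branch and Smad7 in the BMP and TGF-beta branches.

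Promoter sequences from RefSeq (build GRCm38.p6) were used for 7 of the 10 genes: Id2, Id3, Id4, Smad6, Bmp4, Bmpr1a and Grem1. None was used for Id1, Smad7 and Bambi, so their promoters were not examined. The 250 bases before the start site are shown for 4 genes with different calls below: Id2 and Id3, which were higher with the mimic than with the inhibitor, Id4 of the same family, which was not called, and Grem1, which was lower with the mimic than with the inhibitor. The call of Id3 held in 3 of 9 leave-one-out fits, and the mimic arrays of Id4 also lay above its inhibitor arrays. Each is written 5′ to 3′ along the gene, and capitals mark GGCGCC, a GC-rich element to which BMP Smads are known to bind, and CAGAC with its complement GTCTG, the short Smad box.
Id2, chr12:25096093-25096342, minus strand: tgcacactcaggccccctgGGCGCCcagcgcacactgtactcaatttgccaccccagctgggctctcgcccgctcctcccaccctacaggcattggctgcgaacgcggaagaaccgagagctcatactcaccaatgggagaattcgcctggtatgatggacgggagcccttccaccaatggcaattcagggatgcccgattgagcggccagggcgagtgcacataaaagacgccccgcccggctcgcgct
Id3, chr4:136143572-136143821, plus strand: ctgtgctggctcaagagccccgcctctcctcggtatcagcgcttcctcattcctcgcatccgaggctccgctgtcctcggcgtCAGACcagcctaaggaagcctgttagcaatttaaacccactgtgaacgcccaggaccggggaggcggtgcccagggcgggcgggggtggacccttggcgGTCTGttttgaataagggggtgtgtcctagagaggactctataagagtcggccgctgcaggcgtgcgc
Id4, chr13:48260866-48261115, plus strand: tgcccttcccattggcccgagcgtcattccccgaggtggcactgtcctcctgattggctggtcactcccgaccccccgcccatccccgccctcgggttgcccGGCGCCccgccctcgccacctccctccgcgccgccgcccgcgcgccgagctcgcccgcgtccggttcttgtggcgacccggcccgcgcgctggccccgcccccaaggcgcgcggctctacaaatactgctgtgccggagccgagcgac
Grem1, chr2:113758649-113758898, minus strand: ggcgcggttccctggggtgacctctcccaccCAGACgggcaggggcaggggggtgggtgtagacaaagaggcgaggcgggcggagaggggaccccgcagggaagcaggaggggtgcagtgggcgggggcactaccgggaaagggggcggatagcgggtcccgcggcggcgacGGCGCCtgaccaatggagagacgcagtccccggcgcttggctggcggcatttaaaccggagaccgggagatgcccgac

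GGCGCC was present in the window of Id2 (first base 231 bases before the start), Id4 (148), Grem1 (78) and Bmpr1a (198), and in 9.59% of all 32851 promoters of this length. CAGAC, searched on both strands, was present at 2 places in Id3 (167 and 68 bases before the start) and at 1 in Grem1 (219), and in 42.2% of all promoters. The windows were rich in G and C, at 62.8% in Id2 and in Id3, 75.6% in Id4 and 72.0% in Grem1, against a median of 52.4% over all promoters. The E box CANNTG, to which E proteins bind, was present in Id2 and at 3 places in Bmp4, and in 66.2% of all promoters. No window of the 7 genes held the cAMP response element TGACGTCA (1.55% of promoters) or the Egr motif GCGTGGGCG (0.536%), both searched on both strands. The GC-rich element was thus present in Id2 and in Id4, which was not called, and absent from the window of Id3. These are matches of letters in a short window.

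Id1 and Id2 rose with the mimic, by 0.67 and 0.55 on the log2 scale (1.59-fold and 1.46-fold), and so did Smad7, by 0.38. With the inhibitor, Smad7 rose by 0.72, Id1 by 0.47 and Grem1 by 0.38. Id1 and Smad7 were therefore higher than the controls with either RNA, Id2 passed the threshold with the mimic and not with the inhibitor, and Grem1 passed it with the inhibitor and not with the mimic. The direct comparison of mimic and inhibitor placed Id2 higher and Smad7 and Grem1 lower with the mimic. Id3 was also called higher there, a call that held in 3 of 9 leave-one-out fits. A gene was called where the adjusted p of limma, Benjamini-Hochberg over all genes tested, was under 0.05.

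**Figure D1:**
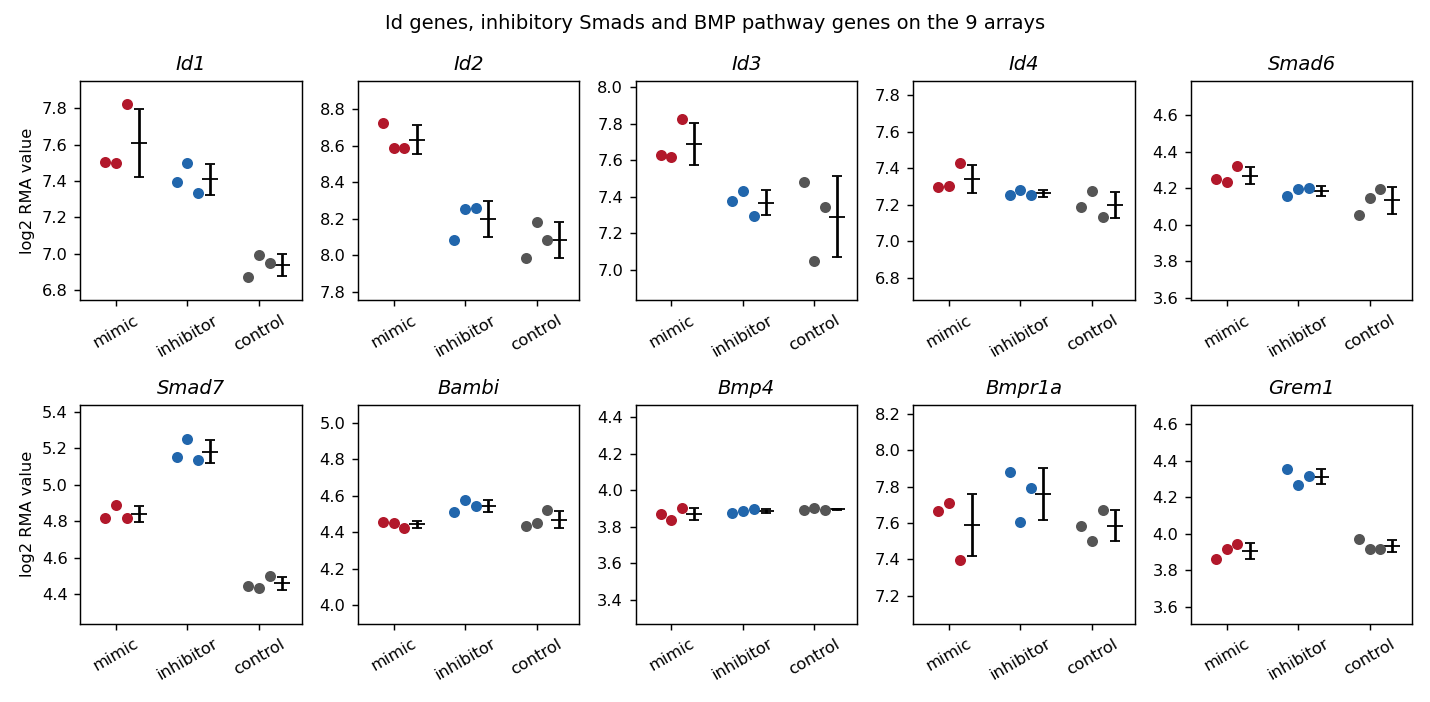
Log2 RMA value of each of the 10 genes (1 panel each, vertical axes all spanning 1.2 log2 units) on the mimic, inhibitor and control arrays; points are arrays, and bars show the mean ± SD of 3. Id1 and Smad7 lay above all control arrays with the mimic and with the inhibitor. The mimic arrays of Id2 lay above all other arrays, as did those of Id3, Id4 and Smad6 by smaller margins. Grem1 stood apart with the inhibitor.

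Id1 (gene ID 15901) stood at 7.50, 7.50 and 7.82 on the mimic arrays, at 7.40, 7.50 and 7.33 on the inhibitor arrays and at 6.87, 6.99 and 6.95 on the control arrays (log2 level). Every mimic and inhibitor array was above the highest control, and mimic 3 was the highest of all 9. Id1 was higher by 0.67 ± 0.09 with the mimic (SE; limma, adjusted p = 0.00333) and by 0.47 ± 0.09 with the inhibitor (adjusted p = 0.00553). Mimic and inhibitor themselves overlapped in Id1, and their difference of 0.20, with a 95% interval of 0.005 to 0.39, was not called (limma, adjusted p = 0.121). Without mimic 3 it was 0.09 (adjusted p = 0.341), and after quantile normalization 0.315 (adjusted p = 0.051).

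Id2 (gene ID 15902), an Id gene with roles in lymphoid and neural cells as well as in fibroblasts, had values of 8.72, 8.59 and 8.59 with the mimic, 8.08, 8.25 and 8.26 with the inhibitor and 7.99, 8.18 and 8.08 in the controls. The mimic arrays lay above the other 6, while inhibitor and control arrays overlapped. The rise with the mimic was 0.55 ± 0.07 over the controls (SE; limma, adjusted p = 0.00309) and 0.43 ± 0.07 over the inhibitor (adjusted p = 0.00153). Inhibitor and control differed by 0.12, with an interval of -0.04 to 0.27 (adjusted p = 0.324).

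Id3 (gene ID 15903), which often acts alongside Id1, read 7.63, 7.62 and 7.82 with the mimic, 7.38, 7.43 and 7.29 with the inhibitor and 7.48, 7.04 and 7.35 in the controls. The mimic arrays were above both other groups, and control 2 was well below the other controls. Against the controls, whose SD was 0.22, the difference of 0.40 ± 0.10 was not called (SE; limma, adjusted p = 0.0651), and without control 2 it was 0.28 (adjusted p = 0.167). Against the inhibitor, Id3 was higher by 0.32 ± 0.10 (SE; limma, adjusted p = 0.0401), a call lost in 6 of 9 leave-one-out fits (without mimic 1, mimic 3, any inhibitor array or control 3, with adjusted p of up to 0.128).

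Id4 (gene ID 15904), the family member best known from the nervous system and the mammary gland, had the smallest differences of the 4. Its levels were 7.30, 7.30 and 7.43 with the mimic, 7.25, 7.28 and 7.25 with the inhibitor and 7.19, 7.28 and 7.13 in the controls. The mimic arrays were above the control arrays by a narrow margin, and the inhibitor arrays overlapped with the controls. The difference was 0.14 with the mimic, with an interval of 0.02 to 0.27 (limma, adjusted p = 0.23), and 0.06 with the inhibitor (adjusted p = 0.518).

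The Id genes thus had their highest mean with the mimic and their lowest in the controls, in all 4 cases. The order mimic, inhibitor, control held up against the test only in part. Mimic and control were not told apart for Id3 and Id4, nor mimic and inhibitor for Id1 and Id4. Inhibitor and control were not told apart for Id2, Id3 and Id4, so Id4 was called in no comparison. The call of Id3 between mimic and inhibitor held in 3 of 9 leave-one-out fits.

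Of the inhibitory Smads, Smad7 (gene ID 17131) was called in all 3 comparisons. It read 4.82, 4.89 and 4.82 with the mimic, 5.15, 5.25 and 5.14 with the inhibitor and 4.45, 4.44 and 4.50 in the controls, and no 2 groups overlapped. The rise was 0.38 ± 0.05 with the mimic (SE; limma, adjusted p = 0.00369) and 0.72 ± 0.05 with the inhibitor, or 1.65-fold (adjusted p = 3.42e-05). Unlike the Id genes, Smad7 was lower with the mimic than with the inhibitor, by -0.34 ± 0.05 (adjusted p = 0.000999).

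Smad6 (gene ID 17130), which competes for activated Smad1, stood near the low end of the array's range. It had 4.25, 4.23 and 4.32 with the mimic, 4.16, 4.20 and 4.20 with the inhibitor and 4.06, 4.15 and 4.20 in the controls. The mimic arrays lay just above the other 6. Its difference from the controls was 0.13 with the mimic, with an interval of 0.02 to 0.25 (limma, adjusted p = 0.228), and 0.05 with the inhibitor (adjusted p = 0.581).

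Of the genes around the receptor, Grem1 (gene ID 23892) alone was called. It encodes gremlin 1, a secreted protein that binds BMPs and keeps them from the receptor. Its levels were 3.86, 3.91 and 3.94 with the mimic, 4.35, 4.27 and 4.32 with the inhibitor and 3.97, 3.91 and 3.92 in the controls, so the inhibitor arrays stood apart and the other groups overlapped. Grem1 was higher by 0.38 ± 0.05 with the inhibitor than in the controls (SE; limma, adjusted p = 0.000805), and differed by -0.41 ± 0.05 between mimic and inhibitor (adjusted p = 0.000274). With the mimic it differed from the controls by -0.03, with an interval of -0.13 to 0.08 (adjusted p = 0.845). Its mean over the 9 arrays lay 0.19 above the filter on low levels.

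Bmpr1a (gene ID 12166), a type I BMP receptor, varied most within groups among the genes around the receptor. It had 7.66, 7.71 and 7.40 with the mimic, 7.88, 7.61 and 7.79 with the inhibitor and 7.58, 7.50 and 7.67 in the controls, and all groups overlapped. Mimic 3 was the lowest and inhibitor 1 the highest array, and these arrays also formed the ends of the first principal component of all genes tested, with scores of -20.5 and 20.88. The part of that component in the spread of Bmpr1a was not tested. The difference from the controls was 0.01 with the mimic, with an interval of -0.20 to 0.21 (limma, adjusted p = 0.985), and 0.17 with the inhibitor, with an interval of -0.04 to 0.38 (adjusted p = 0.261).

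Bambi (gene ID 68010) encodes a receptor-like protein without a kinase that dampens the signal, and Bmp4 (gene ID 12159) a main ligand. Bambi had 4.46, 4.45 and 4.42 with the mimic, 4.51, 4.58 and 4.54 with the inhibitor and 4.44, 4.45 and 4.52 in the controls. Bmp4 ran from 3.84 to 3.90 over all 9 arrays, with a mean just 0.03 above the filter. Neither was called in a comparison, although Bambi was lower on every mimic array than on any inhibitor array (-0.10, limma, adjusted p = 0.144). Intervals of the difference from the controls were -0.13 to 0.08 (mimic) and -0.03 to 0.18 (inhibitor) for Bambi, and -0.12 to 0.07 and -0.10 to 0.09 for Bmp4 (limma, adjusted p of at least 0.346).

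**Figure D2:**
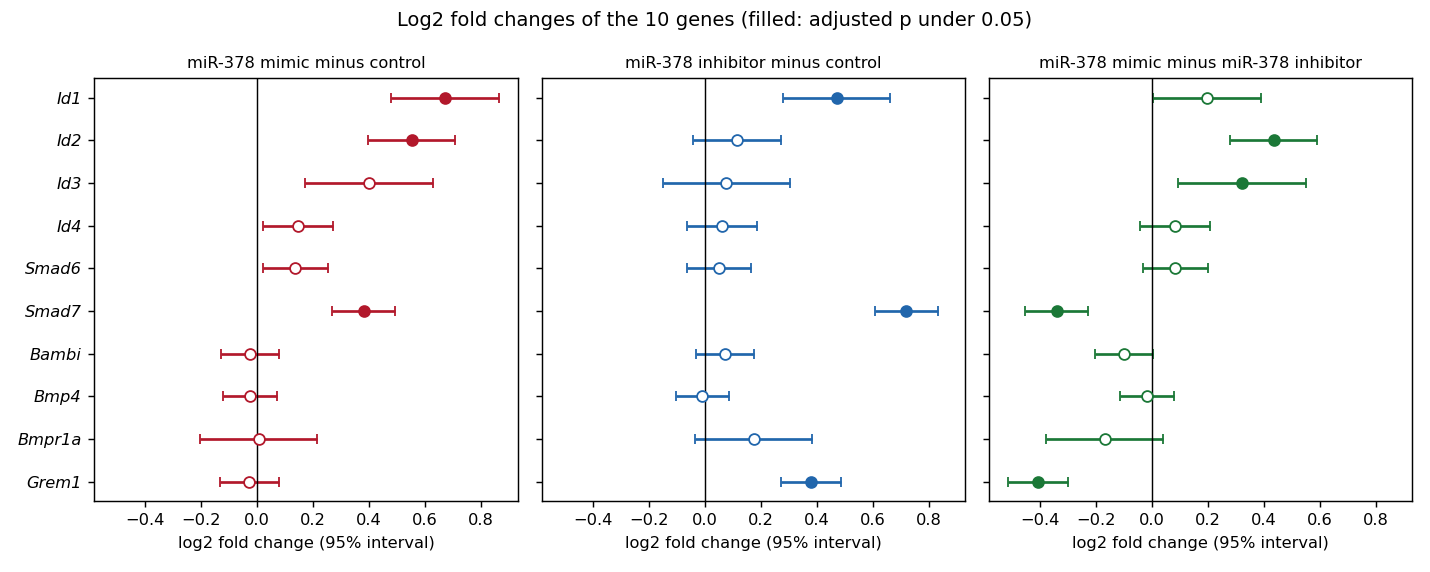
Log2 fold change (horizontal axis) of the 10 genes in the mimic comparison, the inhibitor comparison and the direct comparison, with 95% intervals of limma; filled points were called. Id1, Id2 and Smad7 were called with the mimic, and Id1, Smad7 and Grem1 with the inhibitor. In the direct comparison Id2 and Id3 were called right of 0 and Smad7 and Grem1 left of 0.

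In all, 3 of the 10 genes rose and none fell with the mimic (limma; 6 with an unadjusted p under 0.05), where 3.55% of all genes tested were called, 1.10% higher and 2.45% lower. With the inhibitor 3 rose and none fell (limma; 3 with an unadjusted p under 0.05), against 14.9% of all genes, 11.1% higher and 3.76% lower. Between mimic and inhibitor 2 were higher and 2 lower with the mimic, where 26.8% of all genes were called, 6.91% higher and 19.9% lower. The 10 genes were chosen with earlier results of these data known, so these counts are a description only.

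Groups that do not overlap were counted as well. The mimic arrays lay wholly above the controls in 6 of the 10 genes and wholly below in 0, against 21.3% of all genes without overlap, 8.67% above and 12.7% below. The inhibitor arrays lay above the controls in 3 and below in 0, against 37.7% without overlap, 24.9% above and 12.8% below. The mimic arrays lay above the inhibitor arrays in 4 and below in 3, against 38.6% without overlap, 12.9% above and 25.7% below. The median log2 fold change of the 10 was 0.14 with the mimic and 0.10 with the inhibitor, against -0.01 and 0.01 over all genes. Both comparisons share the control arrays, so their values are given side by side and not as independent of each other.

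The rises of Id1, Id2 and Smad7 with the mimic and of Id1, Smad7 and Grem1 with the inhibitor held whichever array was left out. The log2 fold change of Id1 then ran from 0.56 (without mimic 3) to 0.72 with the mimic and from 0.43 to 0.51 with the inhibitor. That of Smad7 ran from 0.36 to 0.40 and from 0.69 to 0.74. Without mimic 3 and inhibitor 1 together, the same 3 genes were called in each of the comparisons with the control.

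**Figure D3:**
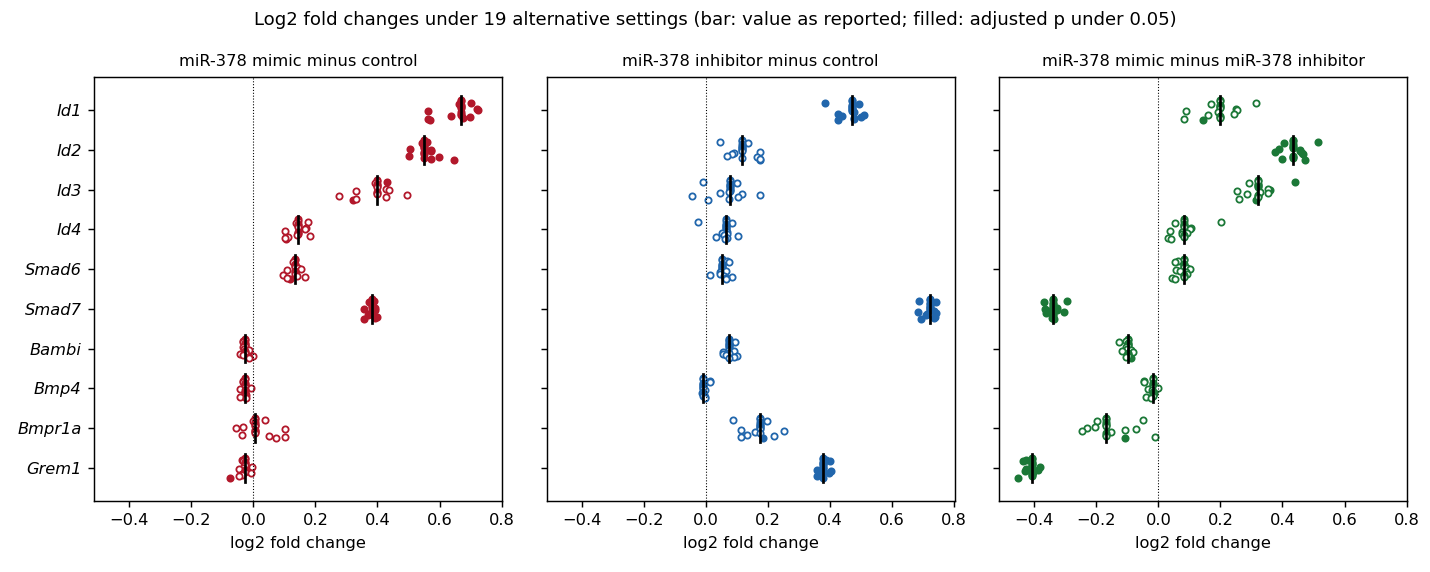
Log2 fold change (horizontal axis) of the 10 genes under 19 alternative settings (points, filled where called) with the value as reported (bar), for the 3 comparisons. Points of Smad7 ran from 0.36 to 0.40 with the mimic and from 0.69 to 0.74 with the inhibitor, against 0.28 to 0.49 and -0.05 to 0.17 for Id3.

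The rest of the pathway was described with lists made from textbook knowledge, apart from the 10 genes. These lists too were made with earlier results of these data known. Of 59 further genes of the BMP pathway, 56 were named on the array and 43 passed the filter. With the mimic 2 rose and 2 fell, or 9.30% (background 3.55%), and with the inhibitor 4 rose and 1 fell, or 11.6% (background 14.9%). Their median log2 fold changes were 0.01 and 0.03.

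Ligand genes other than Bmp4 were low throughout. Of 10, only Bmp6, Gdf2, Gdf5 and Gdf7 passed the filter, none was called in the mimic or inhibitor comparison (limma; 0 with an unadjusted p under 0.05 in each), and their log2 fold changes stayed between 0.03 and 0.05 with the mimic and -0.02 and -0.01 with the inhibitor. Bmp2, the ligand nearest in sequence to Bmp4, averaged 3.42, below the filter.

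Of 9 receptor and co-receptor genes tested, none was called with the mimic (limma; 2 with an unadjusted p under 0.05) and 2 rose with the inhibitor (22.2%, against 14.9% of all genes called). Acvr2a, a type II receptor of activins and some BMPs, read 5.42, 5.01 and 5.11 with the inhibitor against 4.72, 4.74 and 4.63 in the controls, a rise of 0.48 ± 0.11 (SE; limma, adjusted p = 0.0158). The co-receptor gene Rgmb rose by 0.24 with the inhibitor (adjusted p = 0.0311) and differed by 0.25 with the mimic, which was not called (adjusted p = 0.0714). Rgma of the same list differed by -0.23 with the inhibitor and -0.21 with the mimic, neither of them called (limma, adjusted p = 0.0777 and 0.219). The call of Acvr2a ended without control 1 or control 3, and that of Rgmb held in 3 of 9 leave-one-out fits (limma, adjusted p of up to 0.0681 and 0.12) and was 0.16 after quantile normalization. Bmpr2, the main type II receptor, differed by 0.01 with the mimic and by 0.35 with the inhibitor, with an interval of 0.05 to 0.65 (limma, adjusted p = 0.981 and 0.118). Mimic 3 (6.14) and inhibitor 1 (6.99) were again its lowest and highest arrays.

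The Smads that carry the signal were not called. With the mimic their log2 fold changes came to -0.01 for Smad1, -0.02 for Smad5, 0.08 for Smad9 and -0.002 for Smad4 (limma, 0 of 4 with an unadjusted p under 0.05). With the inhibitor they were 0.18, 0.16, 0.06 and 0.11 in the same order (limma, 1 of 4 with an unadjusted p under 0.05).

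Of 6 further intracellular inhibitors, Tob1 fell with the mimic (16.7%, against 3.55% of all genes called) and Skil and Smurf1 rose with the inhibitor (33.3%, against 14.9%). Skil encodes the Smad co-repressor SnoN and is itself a Smad target. It had 4.23, 4.28 and 4.25 with the mimic, 4.63, 4.57 and 4.49 with the inhibitor and 4.04, 4.08 and 4.03 in the controls, so that no groups overlapped, as with Smad7. Its rise was 0.51 ± 0.05 with the inhibitor (SE; limma, adjusted p = 0.000212), and its difference of 0.21 ± 0.05 with the mimic was just above the threshold (adjusted p = 0.0516). Smurf1, a ubiquitin ligase for Smads and receptors, rose by 0.37 with the inhibitor (adjusted p = 0.0392), but this held in 3 of 9 leave-one-out fits (adjusted p of up to 0.133). Tob1, an antiproliferative protein that binds BMP Smads, changed by -0.29 with the mimic (adjusted p = 0.0138), a call that ended without mimic 1, control 1 or control 3 (adjusted p of up to 0.0722).

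Of 9 further extracellular antagonists tested, 1 fell with the mimic and 1 with the inhibitor (11.1% each, against 3.55% and 14.9% of all genes called). Twsg1, which encodes a secreted modulator that binds BMPs together with chordin, fell with the mimic by 0.31 (limma, adjusted p = 0.0386), and Nbl1, an antagonist related to gremlin, fell with the inhibitor by 0.28 (adjusted p = 0.041). These calls held in 3 and in 5 of 9 leave-one-out fits (highest adjusted p of limma 0.161 and 0.156), and that of Nbl1 also ended without mimic 3 and inhibitor 1 together (adjusted p = 0.0561). Grem1 was thus the only antagonist called upward with the inhibitor among the 11 tested, Bambi included. Its rise of 0.38 lay inside the 5th to 95th percentile of all genes tested (-0.198 to 0.388). Bmper (0.30), Fstl3 (0.145) and Fst (0.11) had inhibitor arrays above all controls without being called (limma, adjusted p = 0.062, 0.0706 and 0.463). Those of Fstl1 (-0.19) and Chrd (-0.05) lay below all controls, as did those of Nbl1, and neither Fstl1 nor Chrd was called.

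Of 8 further target genes tested, Atoh8 and Hes1 rose with the mimic (25.0%, against 3.55% of all genes called) and none was called with the inhibitor (limma; 1 with an unadjusted p under 0.05). Atoh8, a basic helix-loop-helix factor induced by BMP in endothelium and liver, had 6.58, 6.73 and 6.61 with the mimic, 6.41, 6.39 and 6.37 with the inhibitor and 6.16, 6.38 and 6.27 in the controls. It rose by 0.37 ± 0.06 (SE; limma, adjusted p = 0.0128), a call that ended without control 1 or control 3 (adjusted p of up to 0.0645). Hes1 is a repressor better known as a target of Notch than of BMP, and read 5.76, 5.72 and 5.67 with the mimic, 5.37, 5.47 and 5.33 with the inhibitor and 5.15, 5.27 and 5.31 in the controls. It rose by 0.47 ± 0.06 with the mimic (SE; limma, adjusted p = 0.00301) whichever array was left out. Both were also higher with the mimic than with the inhibitor, by 0.25 and 0.32 (adjusted p = 0.0163 and 0.00302), as Id2 was. Msx1, Msx2 and Dlx5, homeobox targets of BMP in limb and skull, differed from the controls by -0.09 to 0.01 over both comparisons and were not called. Their means over the 9 arrays were 4.07, 3.92 and 4.20, near the filter of 3.86, so their small differences come from low levels.

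E proteins, the partners of Id proteins, were not called against the controls. Between mimic and inhibitor, Tcf12 was lower with the mimic by -0.44 ± 0.09 (SE; limma, adjusted p = 0.00486), with 6.49, 6.67 and 6.34 on the mimic arrays against 7.08, 6.85 and 6.88 on the inhibitor arrays. Without mimic 3 and inhibitor 1 together this was -0.28 (adjusted p = 0.0136), a change by over 1.5 times. Other pathway genes lower with the mimic than with the inhibitor were Smurf1 (-0.52), Bmper (-0.41), Acvr2a (-0.40), Twsg1 (-0.35), Skil (-0.30) and Tob1 (-0.27), and Nbl1 was higher (0.29), with adjusted p of at most 0.0218 (limma). Without the same arrays the differences of Smurf1, Bmper, Twsg1 and Acvr2a were -0.30, -0.24, -0.23 and -0.19, and Acvr2a was no longer called (adjusted p = 0.0685). Tob1 was -0.13 and not called after quantile normalization (adjusted p = 0.064). Acvr2a was also lost without mimic 1 or inhibitor 1, Nbl1 without mimic 1, inhibitor 1 or inhibitor 3 and Atoh8 without inhibitor 3 (limma, adjusted p of up to 0.0655, 0.0836 and 0.0575). In all, 10 of the 43 were called between mimic and inhibitor, or 23.3%, against 26.8% of all genes.

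Genes of the TGF-beta branch, which signals through Smad2 and Smad3, were set beside these because Smad7 and Skil also belong to it. Of 9 tested, 2 rose with the mimic (22.2%, against 3.55% of all genes called) and 4 with the inhibitor (44.4%, against 14.9%). None was called lower. Tgfbi had its lowest mean with the inhibitor, and its inhibitor arrays lay below all controls. It differed there by -0.22, with an interval of -0.385 to -0.062, and was not called (limma, adjusted p = 0.0665). Ccn2, a matricellular protein, rose by 0.76 and 1.05, and Pmepa1, which encodes a membrane protein that sequesters Smad2 and Smad3, by 0.37 and 0.57 (limma, adjusted p of at most 0.00525). Skil and the co-repressor gene Tgif1 (0.26, adjusted p = 0.0138) rose with the inhibitor alone by this threshold, and the call of Tgif1 ended without inhibitor 3 or control 3. Ccn2, Pmepa1 and Skil had their highest values with the inhibitor, in the order of Smad7 and not in that of the Id genes. Each was lower with the mimic than with the inhibitor, by -0.29, -0.20 and -0.30 (limma, adjusted p of at most 0.0214). The difference of Pmepa1 was -0.08 after quantile normalization (adjusted p = 0.393), and its call held in 5 of 9 leave-one-out fits. Tgif1 and Smad2 were also lower with the mimic, by -0.37 and -0.37 (adjusted p = 0.00111 and 0.0124). Without mimic 3 and inhibitor 1 together Smad2 was -0.22, and without inhibitor 1 alone it was not called (adjusted p = 0.0523).

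**Figure D4:**
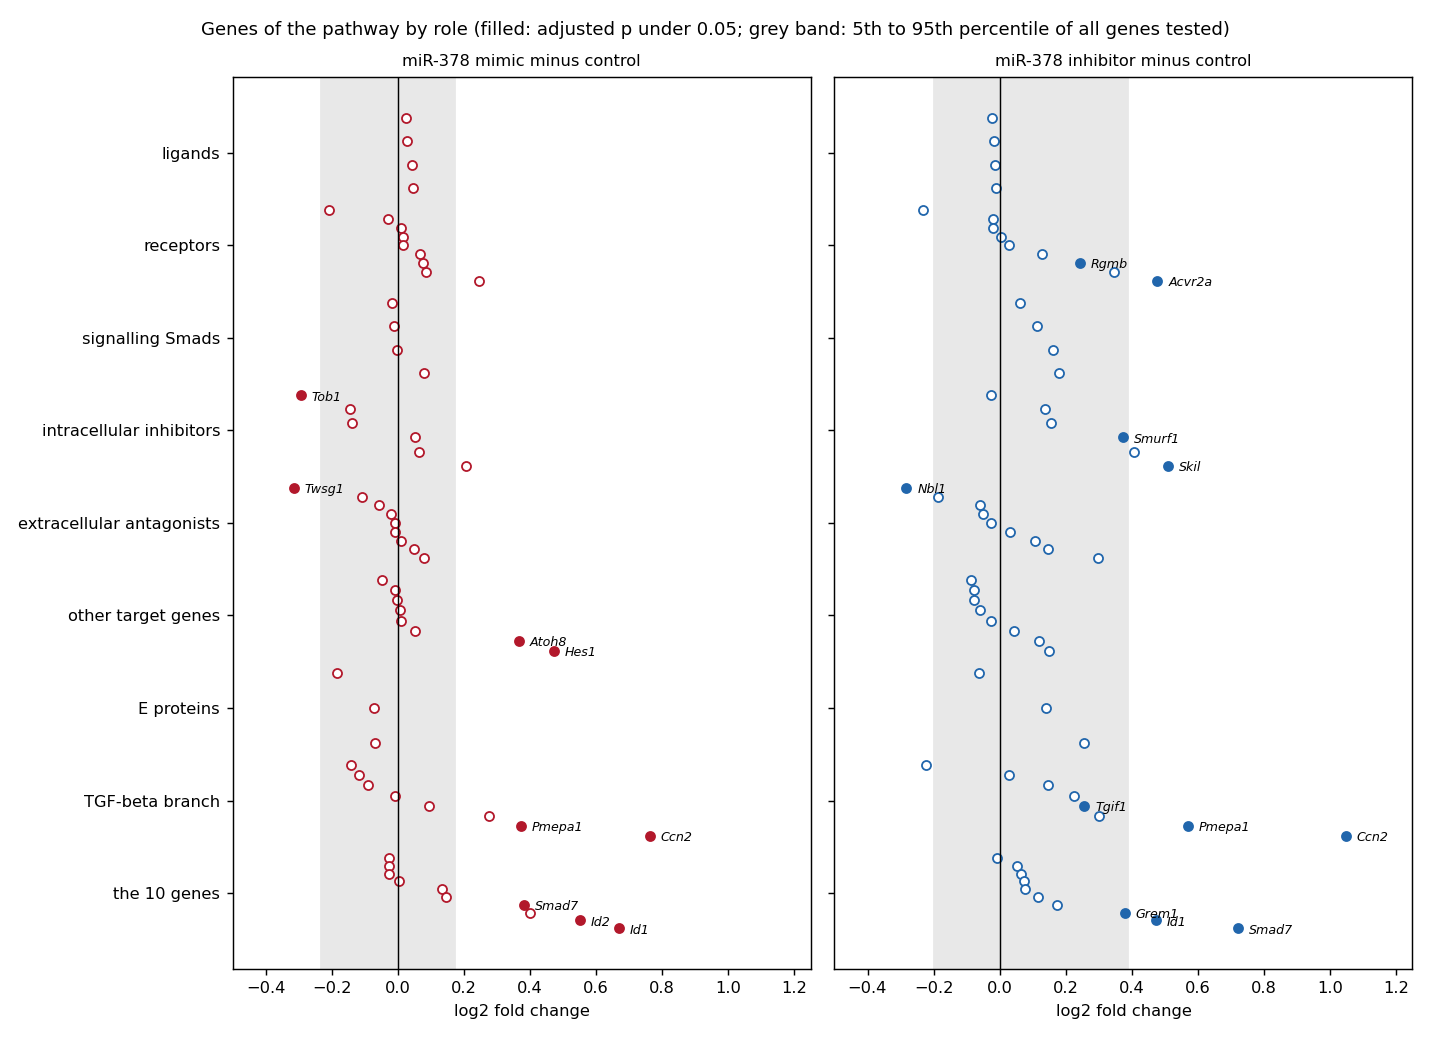
Log2 fold change against the controls (horizontal axis) of the tested pathway genes by role, with the mimic and with the inhibitor; filled points were called and carry their names, Skil is drawn once, among the intracellular inhibitors, and the grey band spans the 5th to the 95th percentile of all genes tested. Of the called genes, Id1, Id2, Smad7, Atoh8, Hes1, Pmepa1 and Ccn2 lay right of the band with the mimic, and Id1, Smad7, Acvr2a, Skil, Pmepa1 and Ccn2 with the inhibitor. Called genes left of it were Tob1 and Twsg1 (mimic) and Nbl1 (inhibitor). Id3, Tgfbr1, Rgmb and Skil (mimic) and Smurf2 (inhibitor) lay right of it without being called, and Rgma and Tgfbi (inhibitor) left of it.

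Over the 9 arrays, the genes whose log2 values followed Id1 most closely were Fhl2 (Pearson r = 0.96), Rap1gap2 (0.93) and Noct (0.92). Fhl2, a LIM-domain cofactor, rose by 0.81 with the mimic and by 0.55 with the inhibitor (limma, adjusted p of at most 0.000369). Id2 was followed by Idua (0.96), Pdlim7 (0.96) and Hes1 (0.95), Id3 by Cnst (0.96), Mllt6 (0.93) and Olfr462 (0.91), and Smad7 by Cpne2 (0.98), Plaur (0.98) and Vps37b (0.97). Plaur, which encodes the urokinase receptor, rose by 0.33 with the mimic and by 0.82 with the inhibitor (limma, adjusted p of at most 0.0152). None of the genes following Id3 was called in a comparison. These correlations are the highest among 11963 genes over arrays that share their groups and their scaling, and are a description only.

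Among the 10 genes, Id1 followed Id4 (r = 0.85), Smad6 (0.83), Id2 (0.76) and Id3 (0.70) over the 9 arrays, and Smad7 followed Grem1 (0.79) and Id1 (0.67). Other pairs ran from -0.46 (Id4 with Bmpr1a) to 0.82 (Id2 with Smad6). The arrays share their groups, so these values in part restate the group means and are a description only.

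The label of the cells was checked against markers. All 9 fibroblast markers lay above the filter, with array means between 10.00 and 10.19, and 1 of them was called in each comparison with the control. Markers of leukocytes, epithelium, endothelium, muscle and bone had array means of 3.60 to 4.03, and none was called against the controls. Of these markers, Cd68, Csf1r, Krt8, Krt18, Pecam1 and Acta1 passed the filter, with Acta1 the highest at a mean of 4.89. The 3 bone markers lay below the filter. The median of all probe sets lay between 3.94 and 4.03 on each array, and the upper quartile ran from 5.55 (mimic 3) to 5.76 (inhibitor 1). No 2 arrays shared more than 3.58% of their values, and all 9 were used.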

How the data were processed

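RNA of 9 samples, 3 per group, was labelled with biotin and hybridised to Affymetrix whole-transcript arrays, per the labels' protocols. The authors deposited log2 values per probe set, made with Partek 6.5 and RMA per the submitters' processing notes. RMA as a rule corrects background, equalises quantiles and summarises probes. The deposited values did not have equal quantiles, with upper quartiles from 5.55 (mimic 3) to 5.76 (inhibitor 1). No source used here names the genome build of these probe sets. Of 28853 probe sets, 21789 had 1 gene in the platform annotation, 1621 several and 5443 none. Genes were named from the first kind, by the brightest probe set, and the IDs of 19856 matched RefSeq. A gene was tested where its mean reached the 40th percentile of all genes. The 3 groups were fitted together (lmFit and eBayes of limma 3.58.1, R 4.3.3), with Benjamini-Hochberg adjustment over 11963 genes, and its adjusted p and moderated SE are those printed. The number of arrays limits the precision. Nothing in the labels says that replicates came from separate cultures, so the p-values cover the spread of these samples alone, and it may be technical. The code was tested on simulated data. Members and lists were chosen with earlier results of these data known. Named genes were all 10 members, up to 4 called genes per list and comparison, Smad1, Smad5, Smad9, Smad4 and Bmpr2, and the 3 best-correlated genes of Id1, Id2, Id3 and Smad7. Any other gene named was chosen after its values were seen. Alternatives were the filter, scaling, fits of 6 arrays, a replicate block, trend, array weights, all probe sets and leaving arrays out. Python 3.11.15 and matplotlib 3.10.9 made the figures. Some listed genes and the sequence of miR-378-3p were not analysed here.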

Additional observations from a re-analysis of the deposited data

How the results depend on the processing

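Of the 10 genes, the same 3 were called with the mimic in 17 of 19 alternatives and the same 3 with the inhibitor in 18 of 19. Quantile normalization added Id3 with the mimic (4 called). The call of Id3 between mimic and inhibitor also ended with no level filter, a filter at the 20th percentile, median centring and without mimic 3 and inhibitor 1 together (limma, adjusted p = 0.0803, 0.0597, 0.0698 and 0.143). Leaving out single arrays gave 3 to 3 members called with the mimic, 3 to 3 with the inhibitor and 3 to 4 between them. With array weights 7, 5 and 7 members were called with the mimic, with the inhibitor and between them. That fit gave mimic 1 a weight of 49.8 and mimic 3 one of 0.148, and the estimate of the weights stopped before its tolerance. Among the 43 further pathway genes, where alternatives were chosen after seeing the data, single arrays left out gave 1 to 5 called with the mimic (1 without control 1 or control 3), 1 to 13 with the inhibitor (13 without mimic 3, 1 without control 1 or control 3) and 8 to 16 between them (16 without mimic 2), and without mimic 3 and inhibitor 1 together 9 were called with the inhibitor.

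Same-numbered arrays did not consistently deviate together, with r of -0.59 to 0.22 and 5 of 9 pairs over 0.1. Pairs of unlike number had r of -0.58 to 0.63, with 6 of 18 over 0.1. The highest r was that of mimic 2 with inhibitor 1, at 0.63, so the numbers were not taken as pairs. With the replicate number as a block 3, 3 and 4 members were called, the same genes, and 289, 1575 and 3028 of all genes against 425, 1780 and 3204. For all genes, the mimic count was 774 after quantile normalization (335 up and 439 down, against 132 and 293), 231 after median centring, 248 in the fit of 6 arrays, 911 without mimic 3 and inhibitor 1 together, and 133 to 582 with an array left out. The inhibitor count was 974 to 2790 with an array left out, and its split of 1330 up and 450 down became 1269 and 1021 after quantile normalization. The direct comparison had 827 up and 2377 down, against 1670 and 2029. Array weights called 4355, 4362 and 7352 genes. No alternative moved the median of all genes by 0.1.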
